A study of Mus musculus with 50 samples.

Results

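The heat shock proteins and J-domain chaperones measured here were 59 genes of mouse gastrocnemius muscle. They were all gene symbols that begin with Hspa, Hspb, Hspd, Hspe, Hsph or Hsp90, or with Dnaja, Dnajb or Dnajc, followed by a number, and that reached 1 TPM (a transcript level scaled to transcript length and to the sum of its library) in at least 8 mice. Of 64 such symbols among the 23880 genes of the tables, 59 met this limit, and each of the 59 was at 1 TPM or more in all 50 mice. The other 5, Dnajb13, Dnajc5b, Dnajc5g, Dnajc6 and Dnajc22, reached 1 TPM in 0 mice. The members comprised 6 small HSPs, 12 HSP70 and HSP110 genes, 3 HSP90 genes, both subunits of the mitochondrial chaperonin and 36 J-domain genes, of which 4 were of class DNAJA, 9 of class DNAJB and 23 of class DNAJC. Another 8 family genes, all with a single exon, were not analysed here, among them the strongly heat-inducible Hspa1a and Hspa1b.

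RNA was sequenced from the gastrocnemius of 50 wild type male C57BL/6JRj mice, 1 library per mouse, to follow a hindlimb muscle through the ages at which sarcopenia, the wasting and weakening of muscle in old age, sets in. There were 8 mice at each of 8, 18, 22 and 24 months and 9 mice at each of 26 and 28 months. All mice were singly caged and fed the purified AIN93M diet, and mice with overt illness or tumors had been left out. The 8 and 18 months-old mice had only changed to this diet in the months before the endpoint, whereas the 22 to 28 months-old mice had eaten it since 18 to 19 months of age, so age and diet history cannot be told apart in comparisons against 8 months, and 28 months was therefore also compared with 22 months. Total counts ranged from 13607229 to 21267375 per mouse. The muscle fibre markers Acta1, Ckm, Mb, Myh4, Myh1 and Myh7 summed to between 63587 and 110608 TPM in 28 months-old mice and to between 79718 and 101266 TPM in 8 months-old mice, while T and B cell markers stayed at or below 0.748 TPM in both.

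Molecular chaperones bind unfolded or partly folded proteins and keep them from aggregating. HSP70 proteins do so in cycles of ATP hydrolysis, which J-domain proteins start by delivering clients and stimulating the ATPase, and which nucleotide exchange factors such as BAG and HSP110 proteins reset. Small HSPs hold clients without ATP, HSP90 matures signalling proteins and, in muscle, helps to fold myosin, and the chaperonin folds proteins inside mitochondria. Heat shock factors induce many of these genes by binding arrays of the unit GAA and its reverse complement TTC in promoters, and endoplasmic reticulum (ER) stress induces the ER members through another element. Striated muscle is rich in small HSPs, which associate with Z-discs and desmin under mechanical load.

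Promoter windows (250 bases before to 50 after an annotated start, RefSeq, GRCm38.p6) were available for 48 of the 59 members. A heat shock element of 3 units, GAANNTTCNNGAA on either strand, lay in the windows of 4 members, Dnajb6, Hspd1, Hspe1 and Hsph1. Of all 27025 genes with a window, 0.662% had it. Hspd1 and Hspe1 hold the same sites, as their windows overlap. Shorter arrays of 2 units overlap the 3-unit element and were common over all genes. GAANNTTC was present for 9.04% of all genes and for 10 of the 48 members, and TTCNNGAA for 9.60% and for 6 of the 48. The ER stress element, CCAAT and CCACG with 9 bases between them, lay in the windows of 0.137% of all genes and of 3 members, Dnajc3, Hsp90b1 and Hspa5. Of the 7 genes with either long element, Dnajb6 was the only one called between 28 and 8 months. Its promoter is therefore shown with those of Hsph1, of Hspe1, whose start it shares head to head with Hspd1, and of Hspa5, none of which was called with all mice. Capitals mark the 3-unit heat shock element in the first 3 windows, where overlapping matches in Hspe1 run together, and the ER stress element in Hspa5. The windows are chr5:29735648-29735947 (+ strand), chr5:149636266-149636565 (- strand), chr1:55087898-55088197 (+ strand) and chr2:34771840-34772139 (+ strand), each written 5′ to 3′ along its gene.
Dnajb6: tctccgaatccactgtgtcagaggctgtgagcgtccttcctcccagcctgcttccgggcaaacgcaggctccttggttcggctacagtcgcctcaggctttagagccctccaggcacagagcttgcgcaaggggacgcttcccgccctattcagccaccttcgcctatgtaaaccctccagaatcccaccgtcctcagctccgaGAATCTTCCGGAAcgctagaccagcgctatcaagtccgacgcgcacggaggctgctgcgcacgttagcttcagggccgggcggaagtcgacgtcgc
Hsph1: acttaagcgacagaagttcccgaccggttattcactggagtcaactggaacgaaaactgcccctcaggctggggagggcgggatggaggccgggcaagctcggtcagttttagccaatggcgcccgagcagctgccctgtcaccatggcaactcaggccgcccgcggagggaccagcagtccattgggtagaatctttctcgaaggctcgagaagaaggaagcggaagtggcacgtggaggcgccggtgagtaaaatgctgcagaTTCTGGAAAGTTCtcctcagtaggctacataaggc
Hspe1: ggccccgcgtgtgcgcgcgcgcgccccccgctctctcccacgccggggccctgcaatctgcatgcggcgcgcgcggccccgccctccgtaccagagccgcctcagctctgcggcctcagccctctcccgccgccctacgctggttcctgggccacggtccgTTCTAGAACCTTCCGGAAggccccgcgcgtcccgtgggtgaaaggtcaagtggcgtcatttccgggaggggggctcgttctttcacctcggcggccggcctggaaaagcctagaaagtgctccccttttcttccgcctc
Hspa5: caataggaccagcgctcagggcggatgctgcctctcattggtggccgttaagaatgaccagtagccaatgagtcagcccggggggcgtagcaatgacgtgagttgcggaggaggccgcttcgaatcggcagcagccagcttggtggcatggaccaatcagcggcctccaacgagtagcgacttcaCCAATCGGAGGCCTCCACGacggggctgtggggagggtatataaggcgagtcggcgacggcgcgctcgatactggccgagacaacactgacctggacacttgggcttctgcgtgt
A match of letters is a description of these windows, and binding was not measured.

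Per transcript length, levels spanned from a mean of 2.22 TPM over the 50 mice for Hspa12a to 1680 TPM for Hsp90ab1, the constitutive cytosolic HSP90. Next came Hspa8, the constitutive HSP70, at a mean of 1382 TPM, and the small HSPs Hspb6 at 840 TPM and Hspb8 at 768 TPM. These 4 genes held 55.0% of the summed TPM of the members. Hspb6 and Hspb8 differed by less than their SDs over the 50 mice (189 and 157 TPM). In all, 18 members were at 100 TPM or more and 11 below 10 TPM. Dnaja2, the highest J-domain gene, had a mean of 246 TPM. The stress-inducible Hsp90aa1 and Dnajb1 were far lower, at 83.6 and 4.28 TPM.

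One library stood apart before any test. Replicate 2 of 28 months had the highest level of its age for 37 of the 59 members and the lowest for 7, and its summed member TPM of 13554 lay above that of every other mouse, of which replicate 6 of 26 months was next at 10133. Its muscle fibre markers were the lowest of its age (63587 TPM), and its macrophage and endothelial markers the highest (53.4 and 131 TPM), and its total count of 17443783 was the highest of its age but within the range over all mice. The part of these differences in the results was not tested, and the counts of members and of the lists between 28 and 8 months are therefore also given without this mouse.

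The chaperone genes moved in both directions late in life and by modest amounts. Between 28 and 8 months, 24 of the 59 members passed an FDR of 0.01 (edgeR quasi-likelihood test, Benjamini-Hochberg over all genes tested), 15 of them higher and 9 lower at 28 months. This is 40.7% of the members, beside 39.6% of all 12586 genes tested (21% higher and 18.7% lower). The median log2 fold change of the members was -0.06 and that of all genes 0.01. Only Hspb7 changed by 2-fold or more and 7 members by 1.5-fold or more, and the median size of the 24 differences was 0.40 on the log2 scale. The 35 members not called ranged from -0.50 to 0.21. Without replicate 2 of 28 months, 17 members were called, 10 higher and 7 lower, which is 28.8% beside 34.5% of 12567 genes. The members that then missed the threshold were Dnaja2, Dnajc2, Dnajc8, Dnajc13, Dnajc19, Hspa2, Hspa12b and Hspb2, and Hsph1 was gained. In whole muscle, fewer cells of a type and less RNA per cell cannot be told apart.

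**Figure D1:**
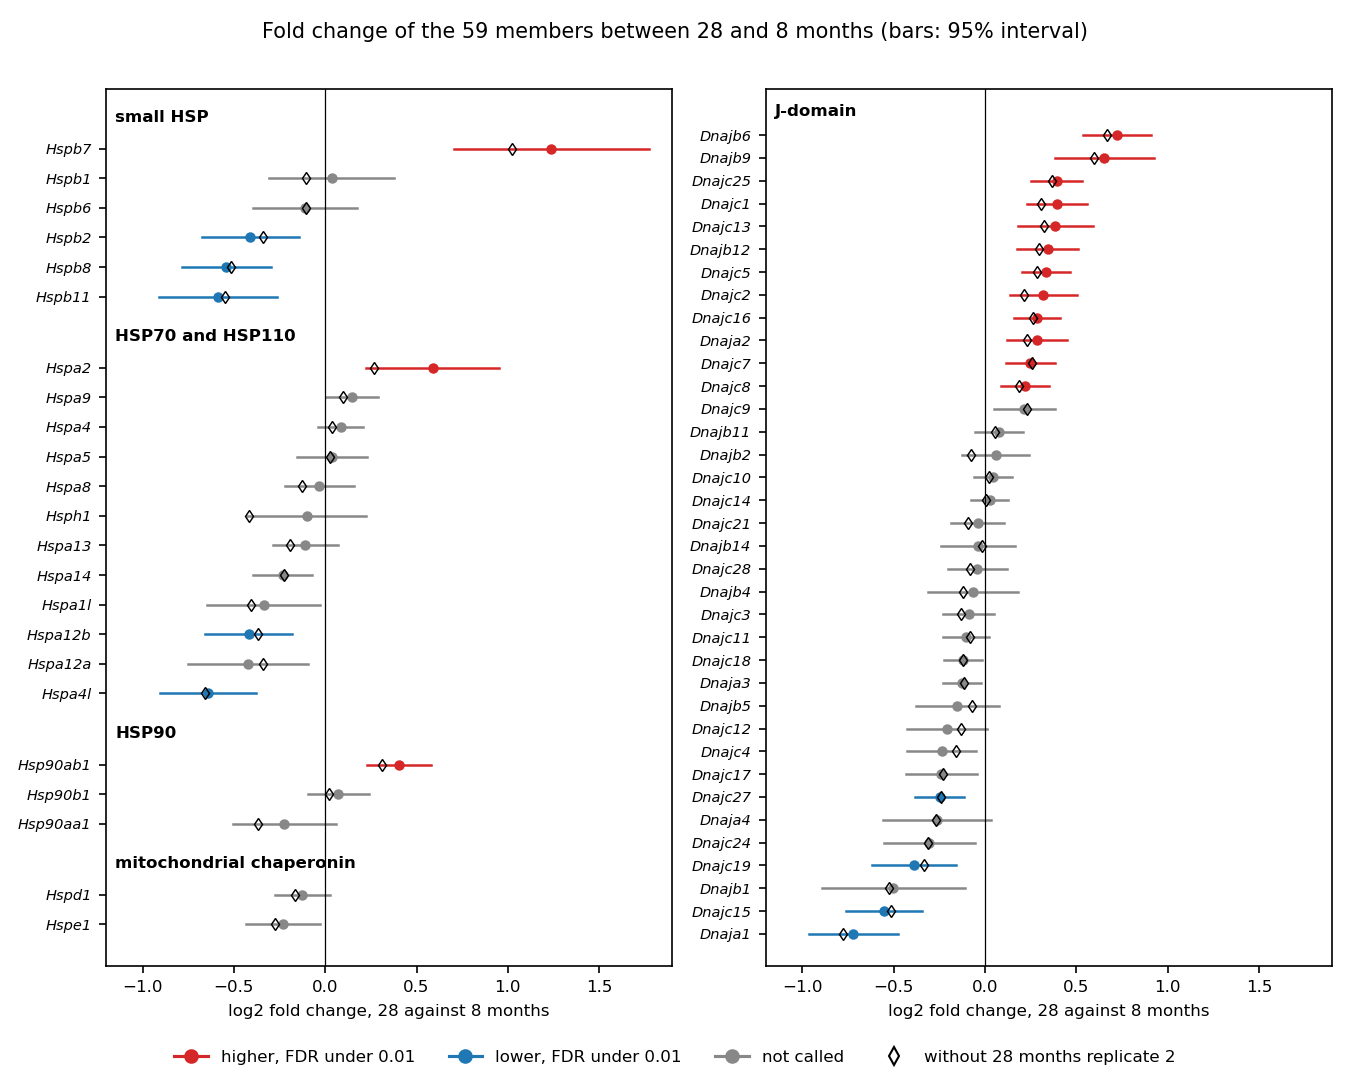
Log2 fold change of the 59 members between 28 and 8 months (edgeR), by family. Points are estimates, bars 95% intervals, colours the direction of the 24 called members, and open diamonds the estimates without replicate 2 of 28 months. Hspb7 lies farthest to the right at 1.24 and Dnaja1 farthest to the left at -0.72.

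The calls came late. Members called against 8 months numbered 0 at 18, 22 and 24 months, beside 0.0715%, 0.0397% and 0.612% of all genes. DESeq2 and limma also called 0 members at these ages. In edgeR 2, 4 and 10 members had an unadjusted p under 0.05. The share of all genes at that limit was not counted for any comparison, so such counts are given as values only. At 26 months 11 members were called (9 higher, 2 lower), 18.6% beside 18.4% of all genes. These comparisons share the 8 months-old mice, and all 11 members, Dnaja1, Dnaja2, Dnajb6, Dnajb9, Dnajb12, Dnajc7, Dnajc16, Dnajc25, Hsp90ab1, Hspa4l and Hspb7, were again among the 24 at 28 months. For 6 of the 15 members called higher at 28 months the difference from 8 months grew at every age, and for 4 of the 9 called lower it fell at every age. Between neighbouring late ages, 26 against 24 and 28 against 26 months, edgeR, DESeq2 and limma called 0 members, and edgeR called 0% of all genes in each, with 7 and 3 members at an unadjusted p under 0.05. A test of any difference over the 6 ages called 17 members (28.8% beside 35.4% of all genes), all among the 24.

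Within the mice of 1 diet history, 28 against 22 months, 11 members were called, 7 higher and 4 lower, which is 18.6% beside 27.7% of all genes (16.2% higher, 11.5% lower). Dnaja2, Dnajb6, Dnajb9, Dnajc1, Dnajc2, Dnajc5 and Dnajc25 were higher and Dnajc4, Dnajc15, Hspb8 and Hspb11 lower at 28 months, and all but Dnajc4 were among the 24 called against 8 months. Without replicate 2 of 28 months, 5 remained, Dnajb6, Dnajb9, Dnajc5, Dnajc25 and Hspb8 (8.47% beside 20.1% of all genes).

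The small HSPs diverged. Of 6 members, Hspb7 rose and Hspb2, Hspb8 and Hspb11 fell between 28 and 8 months, and Hspb1 and Hspb6 were not called (66.7% called beside 39.6% of all genes). Without replicate 2 of 28 months Hspb2 also missed the threshold (50% beside 34.5%). Hspb7 (chr4:141420779-141425311), a small HSP of heart and skeletal muscle that binds the actin crosslinker filamin C, ranged from 84.4 to 305 TPM around a median of 210 TPM at 8 months and from 218 to 1257 TPM around 466 TPM at 28 months. Medians were 211 TPM at 18, 321 at 22, 295 at 24 and 349 TPM at 26 months. Of the 9 28 months-old mice, 9 lay above the 8 months mean and 7 above every 8 months-old mouse, so that the groups overlapped in 2 mice. The log2 fold change was 1.24 ± 0.27 (SE; FDR 0.000206), or 2.36-fold, and 1.02 without replicate 2, the mouse at 1257 TPM. The SD was 76.0 TPM (n = 8) at 8 months and 312 TPM (n = 9) at 28 months. The latter includes replicate 2, whose nearest neighbour stood at 659 TPM. As the level rose too, whether the spread widened relative to the mean was not tested.

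Hspb8, which acts with the co-chaperone Bag3 in the selective autophagy of damaged Z-disc proteins, went the other way. Its lowest, median and highest values were 678, 821 and 1032 TPM at 8 months and 464, 612 and 879 TPM at 28 months. The log2 fold change was -0.54 ± 0.13 (SE; FDR 0.000352), with 6 of 9 mice below every 8 months-old mouse, and it was -0.51 against 22 months (FDR 0.00113). Hspb2, which pairs with Hspb3 in muscle, had medians of 121 TPM at 8 and 96.4 TPM at 28 months and stood just inside the threshold (log2 fold change -0.41, FDR 0.00962, and FDR 0.0281 without replicate 2 of 28 months), and it missed the threshold when any of most other single mice was left out. Hspb2 lies on the - strand of chromosome 9 and overlaps Cryab on the + strand, and the reads were counted by strand. Hspb11, which encodes the ciliary transport protein IFT25, was low throughout and fell from a median of 7.84 to 4.92 TPM (log2 fold change -0.59, FDR 0.00259), a call that was lost without replicate 3 of 8 months.

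The classical muscle small HSPs Hspb1 and Hspb6, and Cryab of the partner list, were not called. Hspb1 ranged from 90.6 to 192 TPM at 8 months and from 77.3 to 270 TPM at 28 months, with a log2 fold change of 0.03 (95% interval -0.31 to 0.38), which was -0.11 without replicate 2 of 28 months. That of Hspb6 was -0.11 (-0.40 to 0.17), and that of Cryab 0.02 (-0.33 to 0.38). These intervals leave room for changes of about the size seen for the called members. As Hspb7 and Hspb8 differed in direction, their ratio within each mouse was compared after their values had been seen. It was 0.863 ± 0.505 (SD, n = 9) at 28 months and 0.255 ± 0.117 (n = 8) at 8 months. In 8 of 9 mice it exceeded the highest 8 months value (two-sided exact permutation test, p = 0.000329, 0.000494 adjusted over 3 ratios). The log2 difference of 1.74 was 1.56 without replicate 2 of 28 months. As both genes were already called in opposite directions in the same mice, the p of the ratio adds no separate support.

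**Figure D2:**
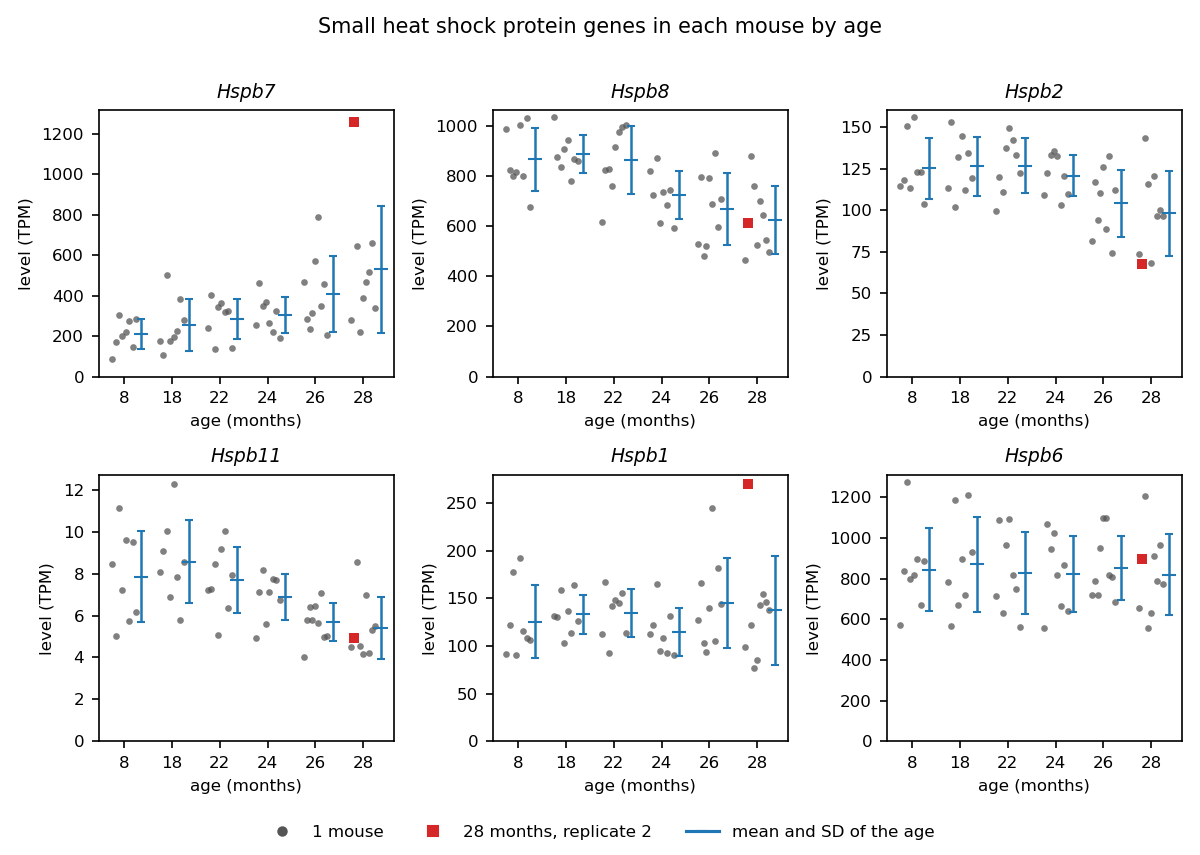
Levels of the 6 small HSP genes in TPM (linear axes from 0) in each mouse by age in months; blue marks give the mean and SD of the age (n = 8 or 9), and the red square is replicate 2 of 28 months. Hspb7 spreads upward to 1257 TPM at 28 months, while Hspb8 and Hspb2 sink and Hspb1 and Hspb6 keep overlapping ranges.

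Of 12 HSP70 and HSP110 members, Hspa2 rose and Hspa4l and Hspa12b fell between 28 and 8 months, and 9 were not called (25% called beside 39.6% of all genes). With replicate 2 of 28 months left out, Hspa4l and Hsph1 were called, both lower (16.7% beside 34.5%), and the median of the 12 was -0.21 in place of -0.11. Among those not called, Hspa12a had -0.42 (95% interval -0.75 to -0.09, FDR 0.0307), Hspa1l -0.34 (-0.65 to -0.03, FDR 0.0677) and Hspa14 -0.23 (-0.39 to -0.07, FDR 0.0157). Hspa8, which serves nearly every HSP70 function of the resting cell, had a median of 1495 TPM at 8 and 1292 TPM at 28 months (log2 fold change -0.03, 95% interval -0.22 to 0.16). Without replicate 2 of 28 months, which stood at 2473 TPM, its log2 fold change was -0.13 (FDR 0.229). The ER member Hspa5 (BiP) ranged from 144 to 227 TPM and from 160 to 233 TPM at these ages, with a log2 fold change of 0.04 (-0.15 to 0.23). Hspa9, the HSP70 of the mitochondrial import motor, had 0.14 (0.00 to 0.29, FDR 0.0891), and the 2 chaperonin genes had -0.13 (Hspd1) and -0.23 (Hspe1, FDR 0.0528). Of Hspe1's 31-base words, 44.9% also occur in transcripts of another gene, so that its count is uncertain.

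Hspa4l, an HSP110-type exchange factor, fell from lowest, median and highest values of 3.12, 5.18 and 6.45 TPM at 8 months to 2.66, 3.48 and 3.80 TPM at 28 months. All 9 28 months-old mice lay below the 8 months mean and 4 below every 8 months-old mouse. The log2 fold change was -0.64 ± 0.13 (SE; FDR 0.000116) and -0.66 at 26 months. Hspa12b, a divergent HSP70 gene known from endothelium, fell from a median of 9.65 to 7.67 TPM (log2 fold change -0.42, FDR 0.00353), while the summed endothelial markers Pecam1, Cdh5 and Kdr had medians of 86.7 and 86.1 TPM, and 0 of these 3 genes were called. Without replicate 2 of 28 months its FDR was 0.0113. Hspa2, best known from testis, was called higher through 1 mouse, as replicate 2 of 28 months stood at 13.7 TPM and the next mouse at 4.70 TPM. Its log2 fold change of 0.59 (FDR 0.00705) was 0.27 (FDR 0.105) without that mouse, and the call was also lost without replicate 1, 2, 6 or 8 of 8 months.

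The same mouse held Hsph1 (HSP105), an inducible HSP110 protein, at 178 TPM, while its highest neighbour of the same age stood at 64.2 TPM. With it, Hsph1 had a median of 66.7 TPM at 8 and 47.2 TPM at 28 months but a log2 fold change of only -0.10 (FDR 0.628). Without it the change was -0.42 (FDR 0.00277). Of the 9 mice at 28 months, 7 were below the 8 months mean.

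The HSP90 genes parted by type. Hsp90ab1 (chr17:45567775-45573271) was already the most abundant member and rose further. Its lowest, median and highest values were 1270, 1406 and 1606 TPM at 8 months, 1582, 1820 and 2059 TPM at 26 months and 1542, 1849 and 3354 TPM at 28 months, and 7 of 9 28 months-old mice lay above every 8 months-old mouse. The log2 fold change was 0.40 ± 0.09 (SE; FDR 0.000225), and 0.31 without replicate 2 of 28 months. The inducible Hsp90aa1 ranged from 54.8 to 148 TPM at 8 and from 64.5 to 161 TPM at 28 months and was not called (log2 fold change -0.22, FDR 0.188, and -0.37, FDR 0.0211, without that mouse). Hsp90b1, the HSP90 of the ER, had 0.07. In a comparison chosen after these values were seen, the ratio of Hsp90ab1 to Hsp90aa1 within a mouse was 24.9 ± 4.03 (SD, n = 9) at 28 months and 17.3 ± 5.37 (n = 8) at 8 months (two-sided exact permutation test, p = 0.00601, the same after adjustment over 3 ratios), with 3 of 9 mice beyond the highest 8 months value.

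Of the 36 J-domain genes, 16 were called between 28 and 8 months, 12 higher and 4 lower, which is 44.4% beside 39.6% of all genes. With replicate 2 of 28 months left out these were 11, 8 higher and 3 lower (30.6% beside 34.5% of all genes). By class, 2 of 4 DNAJA, 3 of 9 DNAJB and 11 of 23 DNAJC genes were called, and without that mouse 1, 3 and 7.

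Dnajb6 (chr5:29735688-29818134), a Z-disc-associated J-domain protein that suppresses aggregation and whose mutations cause a limb-girdle muscular dystrophy, was the member with the lowest FDR in each of the comparisons of 26 and 28 with 8 months. Its lowest, median and highest values were 99.5, 111 and 127 TPM at 8 months, 109, 120 and 138 TPM at 18 months and 118, 127 and 141 TPM at 22 months. They were 133, 141 and 158 TPM at 24 months, 144, 159 and 222 TPM at 26 months and 146, 184 and 295 TPM at 28 months. Every mouse of 24, 26 and 28 months thus lay above every 8 months-old mouse, although 24 against 8 months was not called (log2 fold change 0.28). At 28 months the log2 fold change was 0.72 ± 0.10 (SE; FDR 1.17e-07), or 1.65-fold, and 0.67 (FDR 4.61e-07) without replicate 2. It was 0.57 against 22 months (FDR 2.38e-05), within 1 diet history.

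Dnaja1, a cytosolic partner of HSP70 that is among the heat shock factor targets, fell the most. Its lowest, median and highest values were 38.2, 52.6 and 86.0 TPM at 8 months and 29.0, 35.2 and 55.0 TPM at 28 months. All 9 mice at each of 26 and 28 months were below the 8 months mean, and 6 of 9 at 28 months lay below every 8 months-old mouse. The log2 fold change was -0.72 ± 0.12 (SE; FDR 8.63e-06), and -0.78 without replicate 2 of 28 months. Against 22 months it was -0.31 and not called (FDR 0.0395). Its close relative Dnaja2 was level until 24 months and then higher, with medians of 217 TPM at 8, 231 TPM at 24, 260 TPM at 26 and 287 TPM at 28 months (log2 fold change 0.28, FDR 0.00458, and FDR 0.0187 without replicate 2 of 28 months). Its call was also lost without replicate 5, 7 or 8 of 8 months or replicate 5 or 7 of 28 months. Upper-quartile factors or a fit of only the 2 ages lost this call as well. The ratio of Dnaja2 to Dnaja1 within a mouse, compared after the values were seen, was 7.97 ± 1.70 (SD, n = 9) at 28 months and 4.21 ± 1.004 (n = 8) at 8 months. Each 28 months-old mouse exceeded the highest 8 months value (two-sided exact permutation test, p = 8.23e-05, the smallest these group sizes can give, 0.000247 adjusted over 3 ratios). Because Dnaja1 and Dnaja2 were already called in opposite directions in these mice, the p of the ratio adds no separate support. The transcripts of both genes share under 1% of their 31-base words with other genes.

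**Figure D3:**
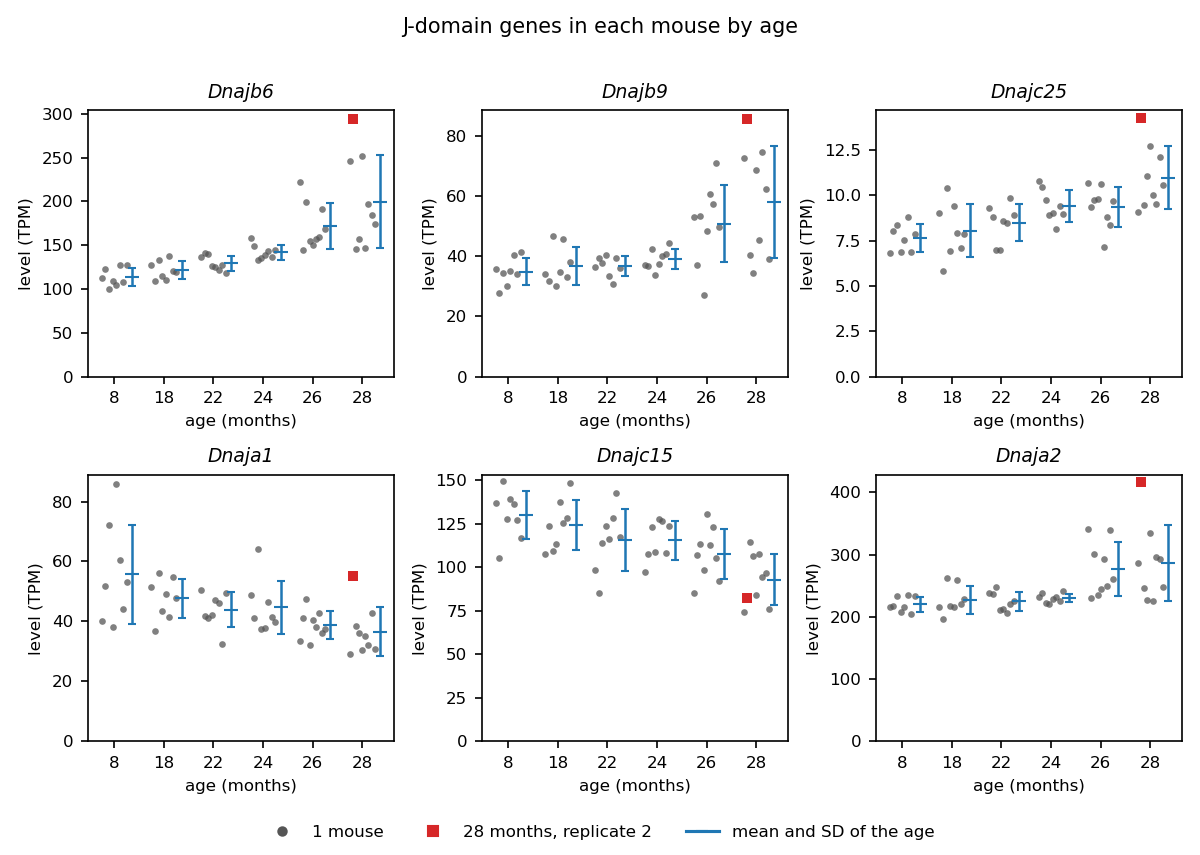
Levels of 6 J-domain genes in TPM (linear axes from 0) in each mouse by age in months; blue marks give the mean and SD of the age (n = 8 or 9), and the red square is replicate 2 of 28 months. All Dnajb6 points from 24 months on lie above the highest 8 months-old mouse at 127 TPM, Dnaja1 and Dnajc15 fall, and Dnaja2 rises from 26 months.

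Among members assigned to the ER, 5 of 13 were called between 28 and 8 months and all 5 were higher, with and without replicate 2 of 28 months. The share of 38.5% lay near the 39.6% of all genes (34.5% without that mouse). All 5 were J-domain genes. Dnajb9 (ERdj4), which is induced by ER stress and recruits BiP to misfolded proteins, rose from lowest, median and highest values of 27.8, 34.8 and 41.4 TPM at 8 months to 34.3, 62.4 and 85.6 TPM at 28 months. In 6 of 9 mice it lay above every 8 months-old mouse, and the log2 fold change was 0.65 (FDR 0.000124), with 0.61 against 22 months (FDR 0.000529). Dnajb12 (0.34), Dnajc1 (0.39) and Dnajc16 (0.29), which are membrane proteins of the ER, and Dnajc25 (0.39) were the others. Dnajc25 lay above every 8 months-old mouse in all 9 28 months-old mice (8 months 6.81 to 8.80 TPM, 28 months 9.07 to 14.3 TPM), although 9.47% of its 31-base words occur in other genes. The luminal chaperones Hspa5 and Hsp90b1 and the J-domain genes Dnajb11, Dnajc3 and Dnajc10 that work with BiP were not called and lay between -0.09 and 0.08. The median of the 13 was 0.07, beside 0.01 over all genes.

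Among 9 mitochondrial members, 2 were called and both were lower, Dnajc15 and Dnajc19, which belong to the group of J-domain proteins that stimulate Hspa9 at the inner membrane. This is 22.2% beside 39.6% of all genes, and without replicate 2 of 28 months only Dnajc15 was called (11.1% beside 34.5%). Dnajc15 fell from 105 to 149 TPM at 8 months to 74.4 to 114 TPM at 28 months, with 9 of 9 mice below the 8 months mean and 6 below every 8 months-old mouse (log2 fold change -0.55, FDR 3.82e-05). Dnajc19 had medians of 102 and 79.3 TPM (log2 fold change -0.39, FDR 0.00461, and FDR 0.0134 without replicate 2 of 28 months), and it also missed the threshold without replicate 3 or 7 of 8 months. The median of the 9 was -0.13. Dnajc4, also assigned to mitochondria, fell between 28 and 22 months (-0.32, FDR 0.00741), but not without replicate 2 of 28 months (FDR 0.0173).

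Other J-domain members rose by small amounts. Dnajc13, an endosomal protein, had medians of 31.9 TPM at 8 and 41.2 TPM at 28 months (log2 fold change 0.38, FDR 0.00216) and missed the threshold without replicate 2 (FDR 0.0107). Dnajc5, the cysteine string protein of secretory vesicles, was higher by 0.33 (FDR 6.45e-05) and was above every 8 months-old mouse in 7 of 9 28 months-old mice. Dnajc7, whose TPR repeats bind HSP70 and HSP90, was higher by 0.25. Dnajc27, which joins a J-domain to a Rab-like GTPase, fell by 0.25 on the log2 scale (FDR 0.00215).

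**Figure D4:**
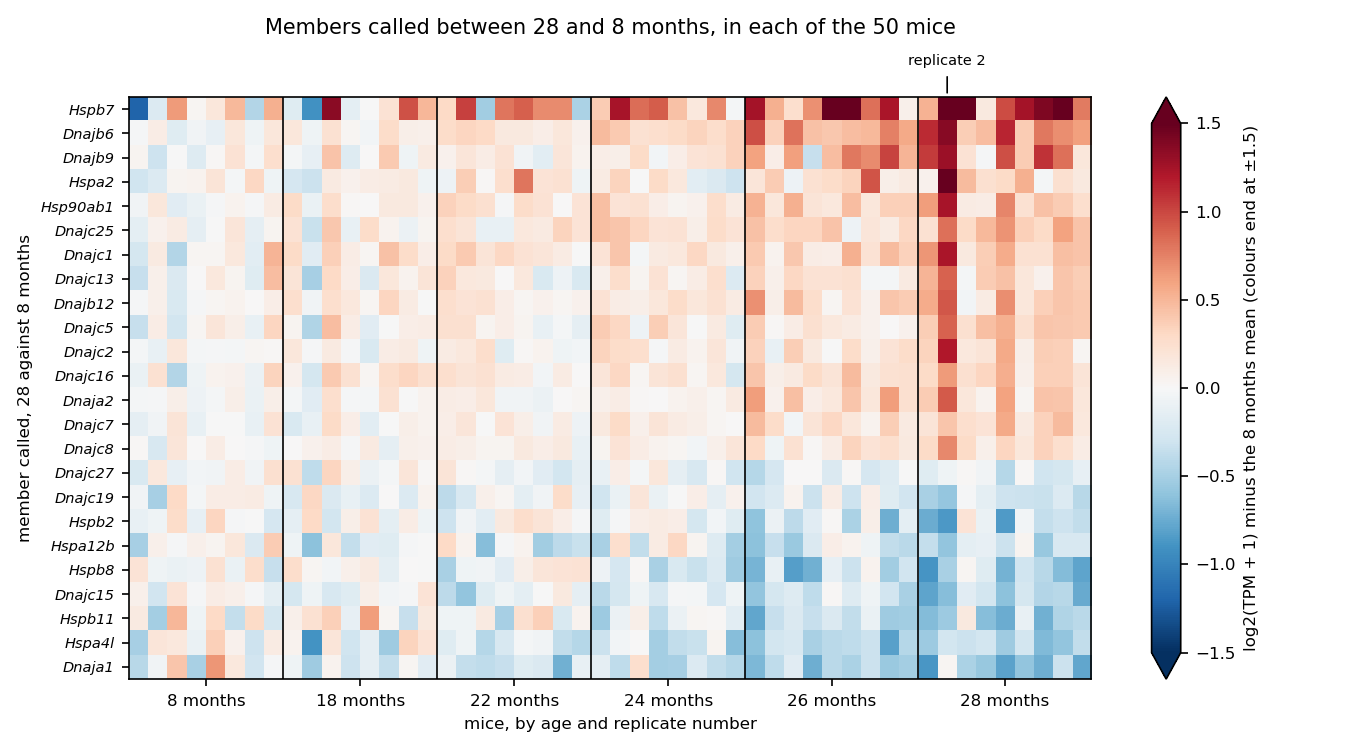
The 24 members called between 28 and 8 months (rows, from the largest rise to the largest fall) in each of the 50 mice (columns, by age and replicate number). Colour is log2(TPM + 1) minus the 8 months mean of the gene, red above and blue below, ending at ±1.5; the column of replicate 2 of 28 months is the highest of its age for 14 of the 15 members called higher.

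Dnajb1, the main inducible J-domain partner of HSP70, stood out in a single mouse and was chosen for description after its values were seen. It lay between 3.27 and 5.18 TPM in 7 of the 8 months-old mice and at 16.5 TPM in replicate 5. The same mouse had the highest 8 months levels of Hspa1l (44.4 TPM, next 28.5 TPM), Hsp90aa1 (148 TPM), Dnaja1 (86.0 TPM) and Hspb1 (192 TPM) and the highest sum of the immediate early genes Fos, Fosb, Egr1, Junb and Atf3 (213 TPM, beside a median of 73.8 TPM at 8 months). Hspa1l lies 546 bases from Hspa1a on chromosome 17, and 14.6% of its 31-base words also occur in Hspa1a, which was not analysed here. Dnajb1 itself was not called between 28 and 8 months (log2 fold change -0.50, FDR 0.0313). The immediate early sum had a median of 42.7 TPM at 28 months, and 2 of the 4 such genes tested were called lower, and 1 of 4, Fosb, without replicate 2 of 28 months.

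After the mean of each age was removed, Dnajb1 was correlated across the 50 mice with 9 genes that heat shock factors or handling are known to induce. Permutation of mice within ages, adjusted over the 9 pairs, passed 0.05 for Pearson's r with Dnaja1, Dnajb4, Hspb1, Hsp90aa1 and Fos and for Spearman's rho with Dnaja1, Hspb1 and Hsp90aa1. For Dnaja1, Pearson's r was 0.55 (permutation p = 0.0005, adjusted 0.00234) and Spearman's rho 0.47 (permutation p = 0.00133, adjusted 0.012), and for Hsp90aa1 r was 0.50 (permutation p = 0.0005, adjusted 0.00234) and rho 0.38 (permutation p = 0.00909, adjusted 0.0273). Within single ages r ranged from 0.14 to 0.73 for Hsp90aa1, positive in all 6, and from -0.00 to 0.79 for Dnaja1. On TMM-normalized CPM Hsp90aa1 was positive in 5 of the 6 ages, down to -0.36, and its rho no longer passed (0.31, permutation, adjusted p = 0.101). On that scale Dnaja1 was also positive in 5 of the 6 ages, down to -0.40. Its r of 0.50 and rho of 0.45 still passed (permutation, adjusted p = 0.0253 and 0.0283). When replicate 5 of 8 and of 22 months, whose Dnajb1 lay farthest from the median, were both dropped, r was 0.42 for Dnaja1 and 0.38 for Hsp90aa1. The age means removed beforehand still included both mice, which shifts the other mice of those ages together. These values therefore cannot show whether the relations hold without them. For Fos r went from 0.30 (permutation p = 0.0119, adjusted 0.0267) to 0.11 when these mice were dropped in the same way. Its rho over all mice was 0.15 (permutation p = 0.274, adjusted 0.309). Dnajb1 and Hsph1 had an r of 0.20 (permutation p = 0.123, adjusted 0.123). All values of a mouse come from 1 library and share its depth and composition.

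**Figure D5:**
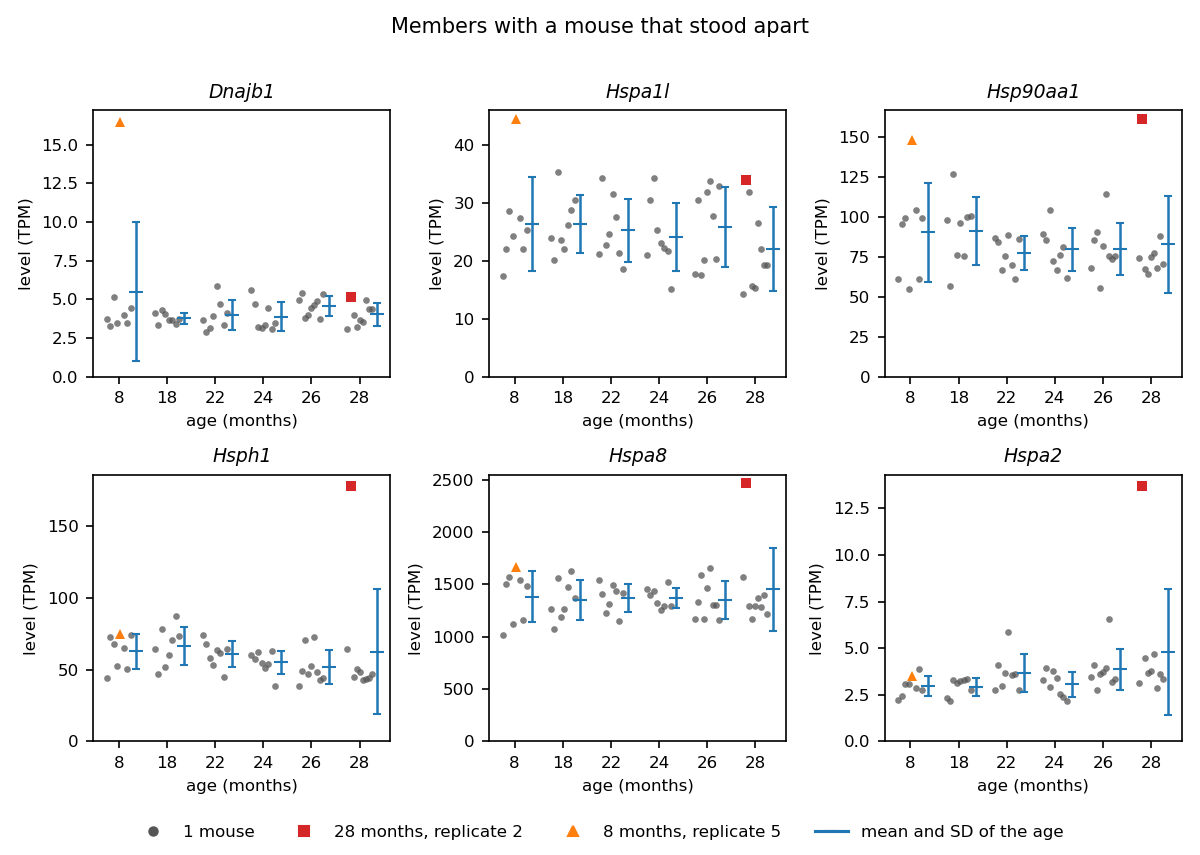
Levels in TPM (linear axes from 0) of 6 members in each mouse by age in months, with blue marks for the mean and SD of the age (n = 8 or 9). The orange triangle, replicate 5 of 8 months, tops Dnajb1 at 16.5 TPM and Hspa1l at 44.4 TPM, and the red square, replicate 2 of 28 months, tops Hsph1 at 178 TPM, Hspa8 at 2473 TPM and Hspa2 at 13.7 TPM.

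Of 13 tested genes listed as heat shock factor targets, 2 were called between 28 and 8 months, Dnaja1 and the HSP70-HSP90 adaptor Stip1, and both fell (15.4% beside 39.6% of all genes). Without replicate 2 of 28 months 5 were called, all lower (38.5% beside 34.5% of all genes), as the HSP90 co-chaperones Ahsa1 and Chordc1 and the member Hsph1 were added. The median of the 13 was -0.18, and -0.26 without that mouse, where all genes had 0.00. Of the heat shock factors themselves, Hsf2 rose by a log2 fold change of 0.49 (FDR 1.27e-05), from 18.3 to 25.6 TPM at 8 months to 25.2 to 46.4 TPM at 28 months, with 8 of 9 mice above every 8 months-old mouse, and Hsf1 was not called (0.12, FDR 0.188).

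The co-chaperones and other partners, 73 tested genes, had 28 calls between 28 and 8 months, 11 higher and 17 lower (38.4% beside 39.6% of all genes). Without replicate 2 of 28 months they had 30, 10 higher and 20 lower (41.1% beside 34.5% of all genes). Fkbp5, a glucocorticoid-induced co-chaperone of HSP90, showed the largest rise. Its lowest, median and highest values were 11.8, 37.9 and 57.4 TPM at 8 months and 42.2, 164 and 366 TPM at 28 months (log2 fold change 1.99, FDR 7.5e-06, and 1.76 without replicate 2, the highest mouse). Against 22 months it was 2.13 (FDR 1.61e-05). Atf6, a sensor of ER stress, and the ER lectin chaperone Canx rose by 0.54 and 0.52, and both stayed below an FDR of 0.01 without replicate 2. Serpinh1, the ER chaperone of collagen, fell by 1.43 on the log2 scale (FDR 4.43e-08), with 9 of 9 mice at each of 26 and 28 months below every 8 months-old mouse. Of the 13 genes of ER folding only 4 were above 0, Atf6, Canx, P4hb and Xbp1, all called, and the median was -0.21. Pdia4 (-0.57) and Creld2 (-0.39) were also called lower, Creld2 not without replicate 2 of 28 months. Bag2, which inhibits the HSP70-linked ubiquitin ligase Stub1, fell by 0.71 on the log2 scale (FDR 2.55e-06). Bag3, the partner of Hspb8, had 0.15 (95% interval -0.09 to 0.38), and the myosin chaperone Unc45b had -0.13 (FDR 0.0926), though it was lower at 28 than at 22 months (-0.24, FDR 0.00367). By list, 12 of 22 HSP90 co-chaperones were called (4 higher, 8 lower) and 7 of 13 genes of ER folding (4 higher, 3 lower). Called were also 3 of 11 BAG and exchange factors (1 higher, 2 lower) and 3 of 14 TRiC and prefoldin genes (1 higher, 2 lower). Of 4 genes listed with the heat shock factors 2 were called, Hsf2 higher and Hsbp1, which is not itself such a factor, lower. Of 9 further small HSP and mitochondrial chaperones 1 was called (lower). The share of all genes was 39.6%. Once replicate 2 of 28 months was left out, the HSP90 co-chaperones had 15 of 22 (3 higher, 12 lower, 68.2%). The genes of ER folding then had 6 of 13 (4 higher, 2 lower, 46.2%), and the counts of the other 4 lists were the same. All genes stood at 34.5% in that fit.

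Markers of other cells moved with age too. Between 8 and 28 months the summed macrophage markers Adgre1, Cd68 and Csf1r went from 13.8 to 28.1 TPM to 21.8 to 53.4 TPM (1 of 3 called, higher, and 0 of 3 without replicate 2 of 28 months, the mouse at 53.4 TPM), the adipocyte markers Adipoq, Plin1 and Cfd from 85.1 to 336 TPM to 71.6 to 171 TPM (3 of 3 called, lower), the fibroblast markers Pdgfra, Dcn and Col1a1 from 559 to 844 TPM to 528 to 732 TPM (1 of 3 called, lower) and the erythroid markers Hbb-bs and Alas2 from 458 to 1830 TPM to 311 to 2962 TPM (1 of 2 called, higher). Their part in the chaperone results was not tested.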

How the data were processed

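Poly(A) RNA of the gastrocnemius of 50 mice was sequenced with a stranded paired-end protocol, and ages and replicate numbers were taken from the labels. The authors trimmed reads with Cutadapt 1.9.1 and assigned them by strand with kallisto 0.43.1 to protein-coding Ensembl transcripts of GRCm38 with an annotated support level. Reads compatible with more than 1 transcript were split in equal parts. The deposited estimated counts were made by the authors by adding transcript counts per gene and are whole numbers. The deposited TPM values were made by the authors by dividing by transcript length, scaling and adding per gene. Single-exon genes without a support level, such as Hspa1a, were not analysed here.

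Counts were analysed in edgeR 4.0.16 (R 4.3.3) with TMM factors and quasi-likelihood tests, in 1 fit over the 6 ages, on genes that reached 1 CPM in 8 or more mice, at an FDR of 0.01. All 59 members passed this filter. DESeq2 1.42.0, limma 3.58.1 on log2(TPM + 1), other factors, no filter, fits of only 2 ages, a replicate block and leaving out mice were alternatives. TPM served for levels. The edgeR test was tested on simulated data. Ratios and correlations used permutation tests (scipy 1.17.1). No label says whether mice shared a litter or cage batch, so p-values measure the spread between mice. Precision is given by that spread and limited by depth for low genes.

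The members and the lists of partners, compartments, targets and markers were chosen with earlier results of these data known. Named genes were all members outside the J-domain group. Among J-domain genes they were the 6 largest called rises and up to 6 called falls, of which there were 4. Of the partners they were Hsf1, Hsf2, Bag3, Cryab, Stip1, Unc45b and the 3 largest called changes each way. Other genes named were chosen after their values were seen. A partner gene and a marker list are not reported here. Fold changes of the count fit are on the log2 scale. Gene positions came from GENCODE vM21 (GRCm38) and promoters from RefSeq (GRCm38.p6). The 31-base words of protein-coding GENCODE transcripts were compared to find members that could share reads.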

Additional observations from a re-analysis of the deposited data

Results flagged for a closer look

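The levels of 46 genes, 34 members and 12 partners, were searched at each age for a mouse whose gap to its nearest neighbour, as a share of the range of the age, was above Dixon's 95% critical value for its number of mice. Of 276 such groups 32 were flagged, 31 of them on the high side, where chance flags about 1 in 20. That rate holds for independent groups of normal values, whereas the groups here share libraries. Dnajb1 was added to the search after its values had been seen, so its flag was known beforehand. Replicate 2 of 28 months gave 20 of the 32.

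This mouse was far above its age group in the members Hsp90aa1 at 161 TPM (next 88), Hsp90ab1 at 3354 TPM (next 2363), Hsp90b1 at 170 TPM (next 129), Hspa13 at 12.3 TPM (next 9.03), Hspa2 at 13.7 TPM (next 4.7), Hspa4 at 129 TPM (next 91), Hspa8 at 2473 TPM (next 1570), Hspa9 at 664 TPM (next 490), Hspb1 at 270 TPM (next 155), Hspb7 at 1257 TPM (next 659), Hspd1 at 281 TPM (next 210), Hspe1 at 151 TPM (next 116), Hsph1 at 178 TPM (next 64.2), Dnajc1 at 25.3 TPM (next 16.9) and Dnajc13 at 58.8 TPM (next 45). Among partners it stood apart in Hsf1 at 66.9 TPM (next 48.3), Stip1 at 97 TPM (next 74.6), Fkbp5 at 366 TPM (next 196), Atf6 at 33.3 TPM (next 20.1) and Canx at 153 TPM (next 107). Its summed muscle fibre markers were also the lowest of the 28 months-old mice. The cause was not tested.

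At 8 months, replicate 5 stood apart in Hspa1l at 44.4 TPM (next 28.5) and Dnajb1 at 16.5 TPM (next 5.18), replicate 8 in Hspa12a at 5.24 TPM (next 3.14), and replicate 3 in Hspb6 at 1273 TPM (next 894) and, on the low side, in Dnajb12 at 47.5 TPM (next 55.2). The remaining mice were replicate 5 of 22 months in Hspa2 at 5.86 TPM (next 4.1), replicate 7 of 26 months in Hspa2 at 6.54 TPM (next 4.12), replicate 3 of 24 months in Dnaja1 at 64.2 TPM (next 48.9), replicate 1 of 18 months in Hsf1 at 45.6 TPM (next 41.1), replicate 3 of 24 months in Stip1 at 90.04 TPM (next 80.8), replicate 6 of 18 months in Fkbp5 at 91.5 TPM (next 48.8) and replicate 5 of 22 months in Serpinh1 at 70.5 TPM (next 43.5).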

How the results depend on the processing

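None of the 24 members called between 28 and 8 months changed direction under the settings run, each mouse of these ages left out in turn among them. Values of the named genes and of the 3 ratios at 28 against 8 months under other settings, an FDR of 0.05 among them, numbered 408. Of these, 386 kept their side of the threshold (a p of 0.05 for ratios), 19 lost and 3 gained a call. Of 768 such values with 1 mouse left out 733 kept it, 31 lost and 4 gained one. Without any filter 5 members were called at 26 against 8 months and 7 at 28 against 22 months. With only the 2 ages in the fit, and so fewer mice, these were 6 and 5, and 14 members were called at 28 against 8 months (9 higher, 5 lower). At an FDR of 0.05 there were 19, 22 and, among members lower at 28 than 8 months, 16. In the fit of only 2 ages all genes called at 28 against 8 months numbered 3443, in place of 4988 in the main fit. For the other counts of these settings the share of all genes was not counted. Leaving out each mouse of 8 and 28 months in turn gave 17 to 25 members called at 28 against 8 months, 10 to 16 higher and 6 to 10 lower. All genes called in these fits numbered 4336 to 5418. Both totals were lowest without replicate 2 of 28 months. Without it 5 members were called at 28 against 22 months, a choice made after seeing the data. Hspa2, Hspb2, Hspa12b, Dnaja2, Dnajc8, Dnajc27 and Stip1 each lost their call in at least 2 of the other settings. Under upper-quartile factors 44.9% of all genes called at 28 against 8 months were higher, under TMM 52.9%.

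With the replicate number as a block, members called were 25 at 28 against 8 months, 9 at 26 against 8 months, 9 at 28 against 22 months and 16 over all ages. All genes called at 28 against 8 months were then 4954, in place of 4988, and those of the other comparisons were not counted. Nothing in the labels says that a number pairs mice, and same-numbered mice of 8 and 28 months had correlations of -0.16 to 0.16, with 2 of 8 pairs above 0.1 and 2 of 8 correlating best with their own number, so the block is only a value.

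Hspa1a was planned as the anchor of the correlations and Dnajb1 took its place, because Hspa1a was not analysed here. On TMM-normalized CPM the correlation with Dnajb4 was 0.23 (permutation, adjusted p = 0.371) in place of 0.32, and Spearman's rho with Hsp90aa1 lost its call (adjusted p = 0.101). The Hsp90, Dnaja and small HSP ratios, chosen after seeing the data, kept direction and side on CPM and without replicate 2 of 28 months. Depth limits members of a few TPM, such as Hspa2, Hspa4l and Hspa12a.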
